A study of Mus musculus with 12 samples.

Results

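The collagen and laminin chains of the mouse retina were followed across cell classes, oxygen exposure and age. Members were the rows of the gene table whose symbol reads COL, a number, A and a number, or LAMA, LAMB or LAMC and a number. The rule took 55 of 21408 genes, 44 collagen chains and 11 laminin chains. The samples were 12 single-cell libraries of C57B6 pups made by Drop-seq, in which beads with barcodes catch the 3′ end of messenger RNAs and each molecule is tallied once by its unique identifier (UMI). NORM pups stayed in room air with their own mother, and OIR pups (oxygen-induced retinopathy) had a foster mother and spent days 7 to 12 in 75% oxygen, so the oxygen and the change of mother cannot be told apart. Retinas taken at postnatal day 14 or 17 (P14, P17) were used whole or depleted of rods. The 4 NORM libraries cover both ages, whole and rod-depleted. Of the 8 OIR libraries, 5 were from P14 (2 of them rod-depleted) and 3 from P17 (1 rod-depleted).

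Collagens are built from chains that wind around each other into a stiff helix. Fibrillar types such as I, II and III pack into fibres, type IV joins into the sheet of basement membranes, and types such as IX sit on the surface of fibres. Laminins are cross-shaped proteins assembled from an alpha, a beta and a gamma chain, and they form the other sheet of a basement membrane. In the eye such sheets wrap the vessels and line the inner surface of the retina, and types II, IX and XI are chains of the vitreous gel. In oxygen-induced retinopathy, high oxygen stops and prunes the growing vessels, and disordered vessels form after the return to air.

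Of 25472 cells, 24772 had at least 200 detected genes and were kept, with 569 to 3409 cells in a library and a median of 432 to 1794.5 UMIs per cell. The shallowest library was NORM whole retina at P17 and the deepest were the 2 OIR whole-retina libraries of the same age, so depth and oxygen moved together there. Cells were clustered without the 55 members, and classes were named "-like" from marker genes. They include 376 mural-like cells (led by MGP and RGS5), 267 endothelial-like (CLDN5, LY6C1), 168 astrocyte-like (S100B, GFAP) and 3066 Müller-like cells (RLBP1, GLUL). A further 273 cells led by OPTC, FBLN1 and PTGDS matched no class and are called OPTC-led, and they held both the Müller markers (summed level of 8 genes 59.7 to 153 per 10000 over libraries) and the ciliary epithelium markers (6 genes, 42.1 to 88.1). Fibroblast markers (8 genes) were at 23.5 to 43.3 in them and pigment epithelium markers (7 genes) at 0.968 to 103, and the part of these in the OPTC-led values was not tested. Rod-like cells numbered 1 to 39 in the rod-depleted libraries and 180 to 1413 in the whole-retina ones. Another 829 cells led by the lens gene CRYAA came from P14 OIR whole retina 2 and 3 alone and entered no test. Their summed level was 522 to 539 per 10000 for 8 rod markers and 45.1 to 52.6 for 9 lens markers. They were not counted as rod-like, and what cells they are was not tested. Levels below are means over the cells of a class in a library, in UMIs per 10000 UMIs of the cell, then averaged over the libraries with at least 20 such cells, and they are not scaled to transcript length because only 3′ ends were counted.

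Members were spread over vascular, glial and neuronal classes. In all, 58357 UMIs were of members, of which 29.8% lay in Müller-like, 16.2% in OPTC-led, 15.1% in mural-like and 7.31% in endothelial-like cells. Mural-like and endothelial-like cells together were 2.60% of the cells and held 22.4% of the UMIs. The level was highest in mural-like cells for 19 members, in OPTC-led cells for 10, in amacrine-like cells for 8 and in endothelial-like cells for 1, LAMA4. Only 25 members reached 1 per 10000 in any class, and 6 had 30 UMIs or fewer in all libraries together, among them LAMB3 with 3 and COL8A2 with 9.

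**Figure D1:**
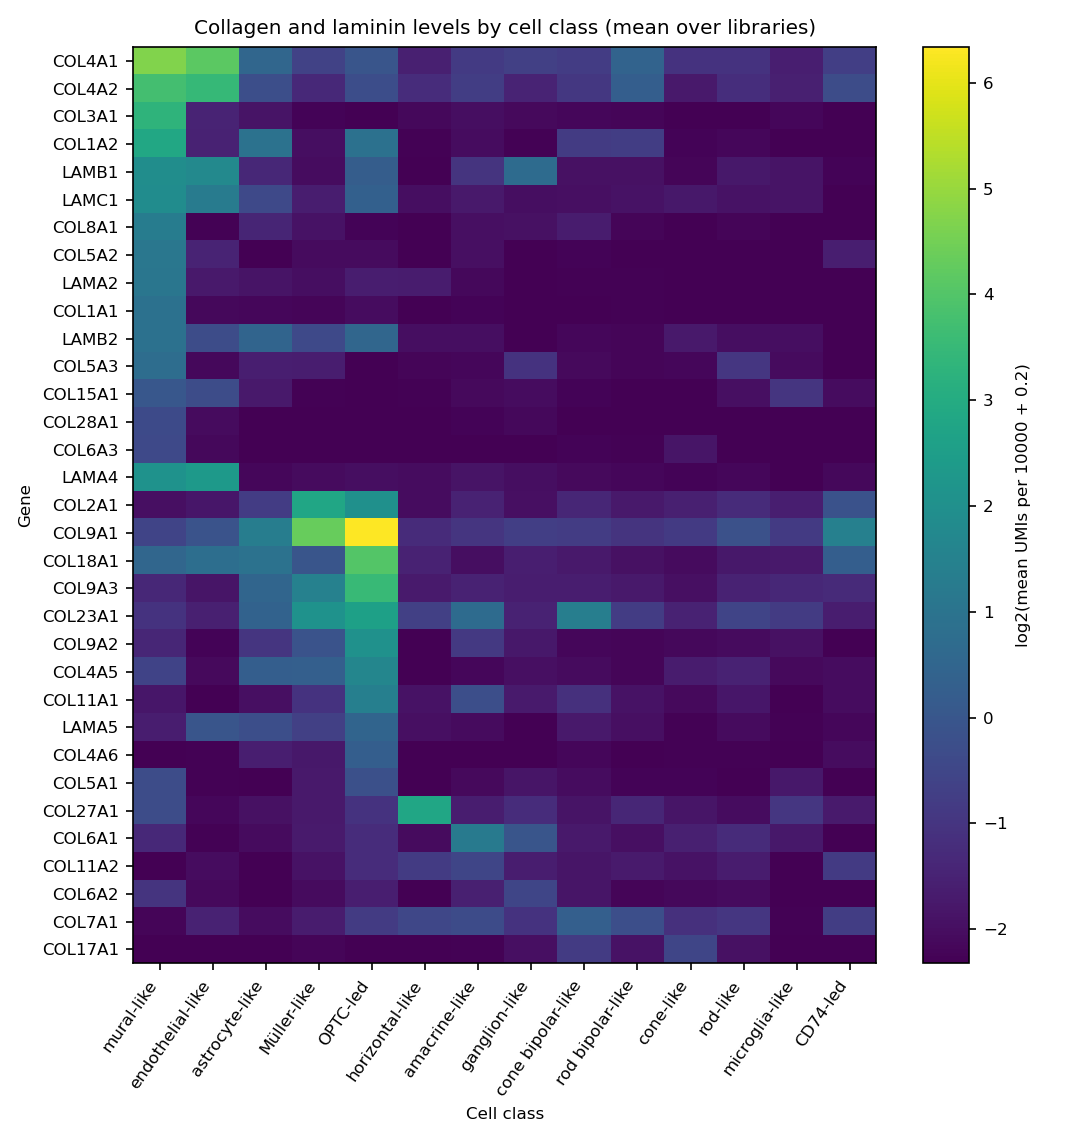
Heat map of log2(mean UMIs per 10000 + 0.2) for 33 members (rows) in 14 cell classes (columns), each the mean over the libraries with at least 20 cells of the class. COL4A1, COL4A2 and LAMA4 are bright in mural-like and endothelial-like cells, COL3A1 and COL1A2 in mural-like cells, COL2A1 and COL9A1 in Müller-like and OPTC-led cells, and COL27A1 in horizontal-like cells.

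Type IV collagen of the ubiquitous kind, made of COL4A1 and COL4A2 chains, was carried by the vessel wall. COL4A1 stood at 25.97 ± 6.49 per 10000 (SD, n = 5 libraries) in mural-like cells and at 17.7 ± 10.99 (n = 4) in endothelial-like cells, against 1.26 in astrocyte-like, 1.17 in rod bipolar-like and 0.449 in Müller-like cells. COL4A2 stood at 13.4 ± 5.71 in mural-like and 10.9 ± 4.76 in endothelial-like cells. At least 1 COL4A1 UMI was found in 91.0% of mural-like and 78.3% of endothelial-like cells, with medians of 1900 and 1967 UMIs per cell, against 1.60% of rod-like cells with a median of 740. The 2 genes were detected together in 277 of 376 mural-like cells and 168 of 267 endothelial-like cells. Of the 10059 UMIs of the pair, mural-like or endothelial-like cells held 71.4% (exact 95% binomial interval 70.5% to 72.3%, which covers counting error only). That share was 81.1% in the rod-depleted and 54.2% in the whole-retina libraries, in which these cells made up 5.20% and 0.775% of all cells. By library it ran from 16.2% in P17 OIR whole retina 1 to 88.8% in P17 OIR rod-depleted.

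The 2 genes lie head to head on chromosome 8 (GRCm38, GENCODE M21), COL4A1 on the minus strand (chr8:11198423-11312826) and COL4A2 on the plus strand (chr8:11312805-11449287). The stretch that both transcripts start in is shown because the 2 genes had similar levels across classes. It is given 5′ to 3′ on the plus strand from RefSeq GRCm38.p6, with the first base of COL4A2 at its left end and that of COL4A1 at its right end.
COL4A1 and COL4A2 shared start, chr8:11312805-11312826: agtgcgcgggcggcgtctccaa
Over 107 class and library profiles (14 classes, 12 libraries), the log2 level of COL4A1 correlated most with that of COL4A2 (Pearson r = 0.87). The next genes were NID1 (0.84), which links the laminin and type IV sheets, LAMA4 (0.84), the surface protein gene TM4SF1 (0.83) and the collagen receptor chain ITGA1 (0.83). These profiles share libraries and classes, so the values are descriptions.

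The other type IV chains were low or lay elsewhere. COL4A5 and COL4A6 were highest in OPTC-led cells (2.97 ± 0.527 and 0.996 ± 0.347 per 10000, n = 5), and COL4A5 also reached 1.03 in Müller-like and 0.998 in astrocyte-like cells. COL4A3 and COL4A4, known from the kidney filter, did not exceed 0.193 and 0.175 in any class. Rod bipolar-like cells formed the third holder of the COL4A1 and COL4A2 UMIs, with 15.4%. A COL4A1 UMI was found in 12.0% of them, at a median depth of 1126 UMIs per cell. The level was 3.15 in a rod bipolar-like cluster of 397 cells and 0.878 and 1.24 in the larger ones. The summed level of the 11 mural markers in rod bipolar-like profiles was 0.32 to 2.90 and that of the 10 endothelial markers 0.07 to 0.90, and their part in these UMIs was not tested.

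Laminin chains of vessels followed the same classes. LAMA4, an alpha chain of vascular laminin, stood at 4.98 ± 1.49 in endothelial-like (n = 4) and 4.08 ± 0.913 in mural-like cells (n = 5), and these cells held 88.7% of its 1059 UMIs. LAMB1 stood at 3.61 ± 1.75 and LAMC1 at 3.48 ± 1.08 in mural-like cells, with 3.18 ± 1.41 and 2.24 ± 1.46 in endothelial-like cells. LAMA2, the alpha chain known from muscle and its vessels, was a mural gene here (1.94 ± 1.51). LAMA5 was highest in OPTC-led (1.19 ± 0.974) and next in endothelial-like cells (0.766), and LAMB2 in mural-like (1.68 ± 1.17), OPTC-led (1.26) and astrocyte-like cells (1.20). LAMB1 was also found in 26.2% of ganglion-like cells, at 1.42 ± 0.578 (n = 8), against 0.379% of rod-like cells. LAMA1, LAMA3, LAMB3 and LAMC3 did not exceed 0.340 in any class.

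Fibrillar chains split between mural-like cells and glia. COL3A1 (9.80 ± 2.12), COL1A2 (7.09 ± 3.27), COL5A2 (1.95 ± 1.04), COL1A1 (1.69 ± 1.57) and COL5A3 (1.52 ± 1.05), chains of the fibres of connective tissue, were highest in mural-like cells (n = 5). Mural-like or endothelial-like cells held 95.7% of the 899 COL3A1 UMIs, and a COL3A1 UMI was found in 62.5% of mural-like, 5.24% of endothelial-like and none of 4488 rod-like cells. The short-chain network collagen COL8A1 was mural as well (2.31 ± 1.20). COL2A1, the main fibrillar chain of cartilage and vitreous, was a Müller gene instead (6.77 ± 2.33, n = 12), with 80.0% of its 3635 UMIs in that class, and it was at 3.89 ± 1.27 in OPTC-led cells. COL11A1, which joins type II fibres, was highest in OPTC-led cells (2.46 ± 1.04).

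Type IX chains and COL18A1 marked the OPTC-led cells. COL9A1 reached 80.7 ± 28.2 per 10000 there (n = 5) and 19.7 ± 5.93 in Müller-like cells (n = 12), and the 2 classes held 36.3% and 57.4% of its 15413 UMIs. COL9A3 (11.3 ± 5.02 and 2.61 ± 0.677) and COL9A2 (3.95 ± 1.41 and 0.735 ± 0.492) had the same order. COL18A1, whose C-terminal fragment endostatin is known to restrain vessel growth, was at 16.0 ± 2.26 in OPTC-led cells, which held 55.9% of its 1943 UMIs. It was at 1.72 ± 1.50 in astrocyte-like (n = 3), 1.53 ± 1.22 in endothelial-like (n = 4) and 1.26 ± 1.18 in mural-like cells (n = 5), 3 levels that did not differ beyond their spread. The genes most like COL9A1 over the 107 profiles were COL9A3 (r = 0.91), IL33, DAPL1, ALDH1A1 and COL2A1 (0.88).

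Neurons had their own collagens. COL27A1, a fibrillar chain, stood at 6.84 ± 2.86 (n = 6) in horizontal-like cells, which were 0.973% of the cells and held 52.1% of its 873 UMIs. A UMI of it was found in 52.3% of horizontal-like cells (median depth 2586) and in 0.646% of rod-like cells. COL6A1, a chain of beaded filaments, was an amacrine gene (2.18 ± 1.01, n = 12), with 78.3% of 1892 UMIs. Within the class it stood at 4.36 in the cluster led by CXCL14 and LPL and 4.05 in the one led by CARTPT and GAD1. It was at 0.482 in the cluster led by CHAT and SLC5A7, the genes of cholinergic cells. Further amacrine-like clusters of 959 and 447 cells had 1.24 and 0.113. The transmembrane collagen COL25A1 had the reverse pattern, with 5.67 in the CHAT-led cluster, where 51.0% of 145 cells had a UMI, and 0.0852 and 0.276 in the other two. COL23A1, another transmembrane collagen, was spread over OPTC-led (5.82 ± 0.757), Müller-like (4.09 ± 1.49) and cone bipolar-like cells (2.41 ± 1.50). Within the cone bipolar-like class it was highest in a cluster of 1268 cells led by KCNG4 and LHX4 (5.33) and in one led by CACNA1H and RELN (3.71). COL7A1, the anchoring fibril chain of skin, reached 1.02 ± 0.583 in cone bipolar-like cells.

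**Figure D2:**
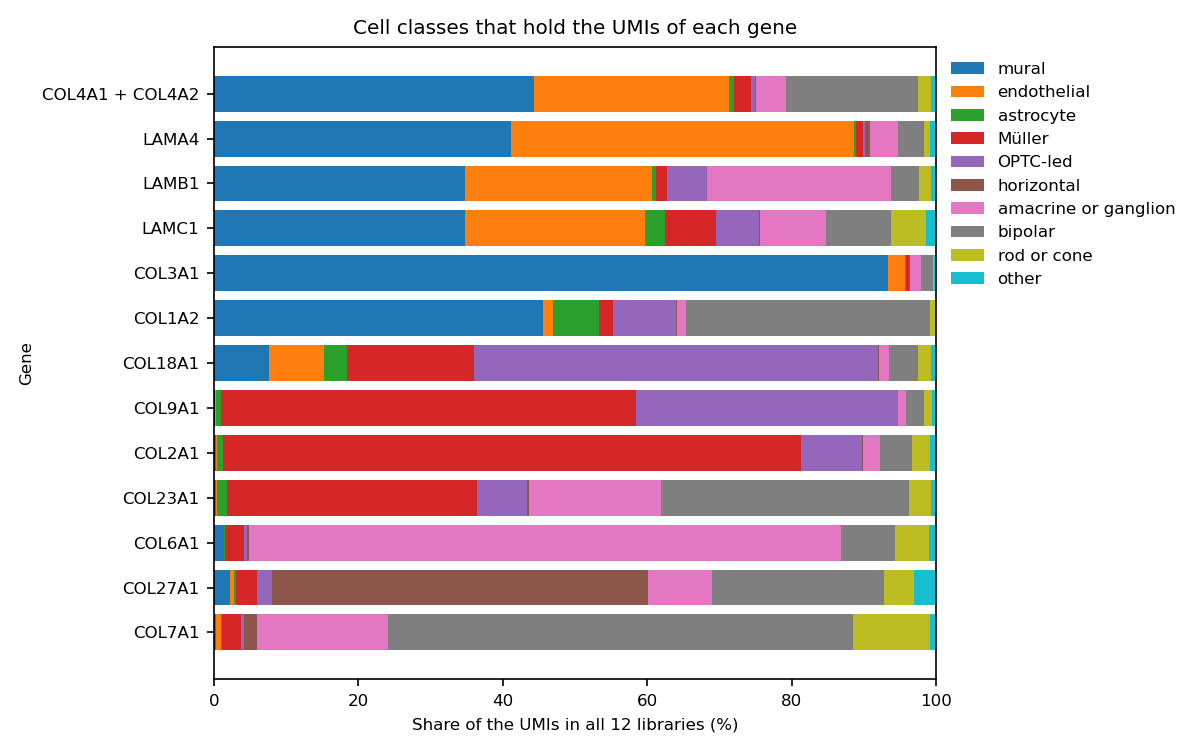
Share of the UMIs of each gene, over all 12 libraries, that lay in each group of cell classes (horizontal axis, percent; a bar per gene, coloured by class). Mural-like and endothelial-like cells held 71.4% for COL4A1 with COL4A2, Müller-like cells 80.0% for COL2A1, OPTC-led cells 55.9% for COL18A1 and horizontal-like cells 52.1% for COL27A1.

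The class differences were tested in a fit of all 107 profiles with the library as a block (limma on log2(level + 0.2)). In it 19 of the 55 members passed the filter on low values, several of them through the class where they were high, so their counts are descriptions. COL3A1 had a mean of 0.162 or less in each of the other classes and entered through mural-like cells, so its differences are a description too. Between mural-like and endothelial-like cells, 5 of the 19 differed past an adjusted p of 0.05 (12.1% of all 8419 genes did), all 5 higher in mural-like cells. COL3A1 was higher by 4.86 ± 0.18 on the log2 scale (SE) and COL1A2 by 4.40 ± 0.34, each in 4 of 4 libraries with both classes. COL27A1 (1.44), COL4A5 (1.17) and LAMB2 (1.14) followed, and without P14 NORM rod-depleted the count was 2. COL4A1 differed by 0.60 ± 0.41 (adjusted p = 0.435), COL4A2 by 0.26 ± 0.41 (0.805), LAMA4 by -0.28 ± 0.21 (0.481) and LAMB1 by 0.04 ± 0.32 (0.974), none of them past the threshold.

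Mural-like and Müller-like cells differed in 16 of the 19 members (background 28.6%). The 9 that were higher in mural-like cells were led by COL3A1 (5.39 ± 0.15), COL4A1 (5.38 ± 0.34, adjusted p = 1.27e-29) and COL4A2 (4.85 ± 0.33), and the 7 that were lower by COL9A1 (-5.52 ± 0.35) and COL2A1 (-4.66 ± 0.31). Endothelial-like and Müller-like cells differed in 13 (background 27.2%), with LAMA4 (4.40 ± 0.18) and COL4A1 (4.78 ± 0.37) higher and COL9A1 (-5.09 ± 0.38) lower. Within glia, Müller-like cells exceeded astrocyte-like ones in COL2A1 (3.48 ± 0.38, adjusted p = 1.34e-13), COL9A1 (3.22 ± 0.42), COL23A1 (1.83), COL9A3 (1.26) and COL9A2 (0.86), and were lower in COL1A2 (-1.88) and LAMC1 (-1.23), 7 of 19 in all (background 12.4%; 4 without P14 OIR rod-depleted 2). The astrocyte-like profiles also held Müller markers (summed level 96.4 to 178 over libraries) and mural markers (17.5 to 51.8), whose part in these differences was not tested. Müller-like cells differed from rod bipolar-like cells in 13 of the 19 (background 44.3%). Of these, COL9A1 was higher in Müller-like cells by 5.40 ± 0.26 (12 of 12 libraries), and COL4A1 and COL4A2 were lower by log2 values of -1.36 ± 0.25 (adjusted p = 1.66e-06) and -1.56 ± 0.25, in 11 of 12 libraries.

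Few members changed with oxygen. In the additive fit of each class (OIR minus NORM, with age and fraction as further terms), 2 of 115 member and class pairs in 11 classes passed an adjusted p of 0.05, against a background of 0.232% of 78992 gene and class pairs. These were COL28A1 in mural-like cells, which fell, and COL23A1 in cone bipolar-like cells, which rose. At an unadjusted p below 0.05 there were 21 of the 115 (18.3%), against 10.8% of all pairs. OIR and NORM libraries share a stated run date only at P14, where rod-depleted NORM was run with rod-depleted OIR 2 and whole-retina NORM with whole-retina OIR 1. Of the 115 pairs, 11 had a mean of at least 0.2 per 10000 in OIR alone and 9 in NORM alone, COL28A1 in mural-like cells among the latter. Such a gene passed the filter on low values only through the condition where it was high, so the counts of 2 and 21 are descriptions. The count of 2 became 8 without P17 NORM rod-depleted, 7 without P17 OIR rod-depleted and 5 without P14 OIR rod-depleted 1. It was 1 without P14 NORM whole retina, P14 OIR rod-depleted 2, P14 OIR whole retina 1, P17 NORM whole retina or P17 OIR whole retina 2.

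The mural-like class had 5 libraries with at least 20 cells, all of them rod-depleted, 2 NORM and 3 OIR, and 28 members were tested in it (background 1.06%). COL28A1, a collagen with von Willebrand factor domains, stood at 1.74 in P14 NORM, 1.02 in P17 NORM, 0 in both P14 OIR libraries and 0.101 in P17 OIR. Every OIR value lay below both NORM values, and the difference was -2.74 ± 0.62 (log2, SE; adjusted p = 0.0295). It passed the filter on low values through NORM, with a mean of 0.0337 in OIR. It rests on few molecules, 4 and 6 UMIs in the NORM and 0, 0 and 4 UMIs in the OIR libraries, the last from 115 cells. In the pair of the same run it went from 1.74 to 0. With the 2 whole-retina libraries that had at least 10 mural-like cells added (0 in P14 NORM and 0.253 in P14 OIR 3), the difference was -1.56 and the adjusted p 0.209. With 4 rod-depleted libraries 1 residual degree of freedom remained, and the adjusted p was 0.0626 without P14 OIR 1 and 0.0444 without P14 OIR 2. Without P14 NORM, P17 NORM or P17 OIR, COL28A1 no longer passed the filter.

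LAMA2 was lower and COL18A1 higher in OIR mural-like cells, both short of the threshold. LAMA2 stood at 3.86 and 3.18 in the NORM libraries (P14 and P17) and at 1.37, 0.296 and 0.981 in the OIR libraries (P14 1, P14 2 and P17). The sets did not overlap, and the difference was -1.91 ± 0.50 (adjusted p = 0.0641). COL18A1 stood at 0.189 and 0.353 in NORM and at 1.14, 3.15 and 1.48 in OIR, again without overlap (2.09 ± 0.53, adjusted p = 0.0568). In the pair of the same run LAMA2 went from 3.86 to 0.296 and COL18A1 from 0.189 to 3.15. With 1 library left out, the adjusted p ranged from 0.00252 to 0.398 for LAMA2 and from 0.00198 to 0.362 for COL18A1. Both passed without P14 OIR 1, P17 NORM or P17 OIR, and neither passed without P14 NORM or P14 OIR 2. Without P17 NORM or P17 OIR a single P17 library is left and the difference is that of P14, from 1 NORM and 2 OIR libraries, with the lone library assumed to vary like the others. LAMB2 had 3.32 and 2.11 in NORM and 0.826, 0.316 and 1.83 in OIR (-1.38 ± 0.52, adjusted p = 0.205), and COL1A2 had 4.55 and 4.06 in NORM and 6.68, 12.2 and 7.94 in OIR (0.95 ± 0.33, adjusted p = 0.168). COL6A3 and COL23A1 were at 0 in both NORM libraries and had means of 0.923 and 0.479 in OIR.

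The abundant vascular chains moved less. COL4A2 stood at 12.5 and 5.63 in NORM mural-like cells (P14 and P17) and at 17.7, 20.1 and 11.02 in OIR (P14 1, P14 2 and P17). The sets overlapped across ages, but within each age every OIR library lay above NORM (0.74 ± 0.27, adjusted p = 0.199). On simulated data the mural-like fit recovered 0% of differences of 1 log2 unit, so a difference of this size could be missed. COL4A1 had 23.9 and 17.3 in NORM and 23.8, 32.8 and 32.1 in OIR (0.51 ± 0.25, adjusted p = 0.324). COL3A1 had 11.2 and 8.44 in NORM and 6.72, 11.4 and 11.3 in OIR (-0.02, adjusted p = 0.979). COL5A3 (1.60, adjusted p = 0.137), COL1A1 (1.58, 0.270) and COL10A1 (-1.79, 0.220) did not pass either. At an unadjusted p below 0.05 there were 12 of the 28 members (42.9%) and 15.5% of all genes tested. Of the 28, 4 had a mean of at least 0.2 in OIR alone and 4 in NORM alone. The count of 12 and the median of the 28 given below are therefore descriptions. By family, none of 3 type IV, 2 multiplexin (COL15A1 and COL18A1), 7 fibrillar and 6 laminin chains tested in the class passed. The median difference of the 28 members was 0.53, and that of all 6882 genes tested 0.05. The summed level of the 8 fibroblast markers in these profiles was 0.753 to 14.7, highest in P17 OIR rod-depleted, and its part in the fibrillar values was not tested.

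With libraries of at least 10 mural-like cells (3 NORM, 4 OIR), LAMA2 passed the threshold. Its values were 3.86, 3.31 and 3.18 in NORM and 1.37, 0.296, 0.127 and 0.981 in OIR, and all 4 OIR libraries lay below all NORM libraries (-2.37 ± 0.48, adjusted p = 0.00126, background 2.58%). The call was lost without P14 NORM rod-depleted (adjusted p = 0.127), P14 NORM whole retina (0.0950) or P14 OIR whole retina 3 (0.0652). COL5A1, a minor chain of type I fibres, passed there as well (2.13 ± 0.61, adjusted p = 0.0397). It passed the filter on low values through OIR alone, so its call is a description. It had 0, 0 and 0.479 in NORM and 0.361, 1.74, 2.83 and 0.473 in OIR, so only 2 OIR libraries exceeded every NORM library, and the call was lost in 5 of the 7 fits that left out a library.

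**Figure D3:**
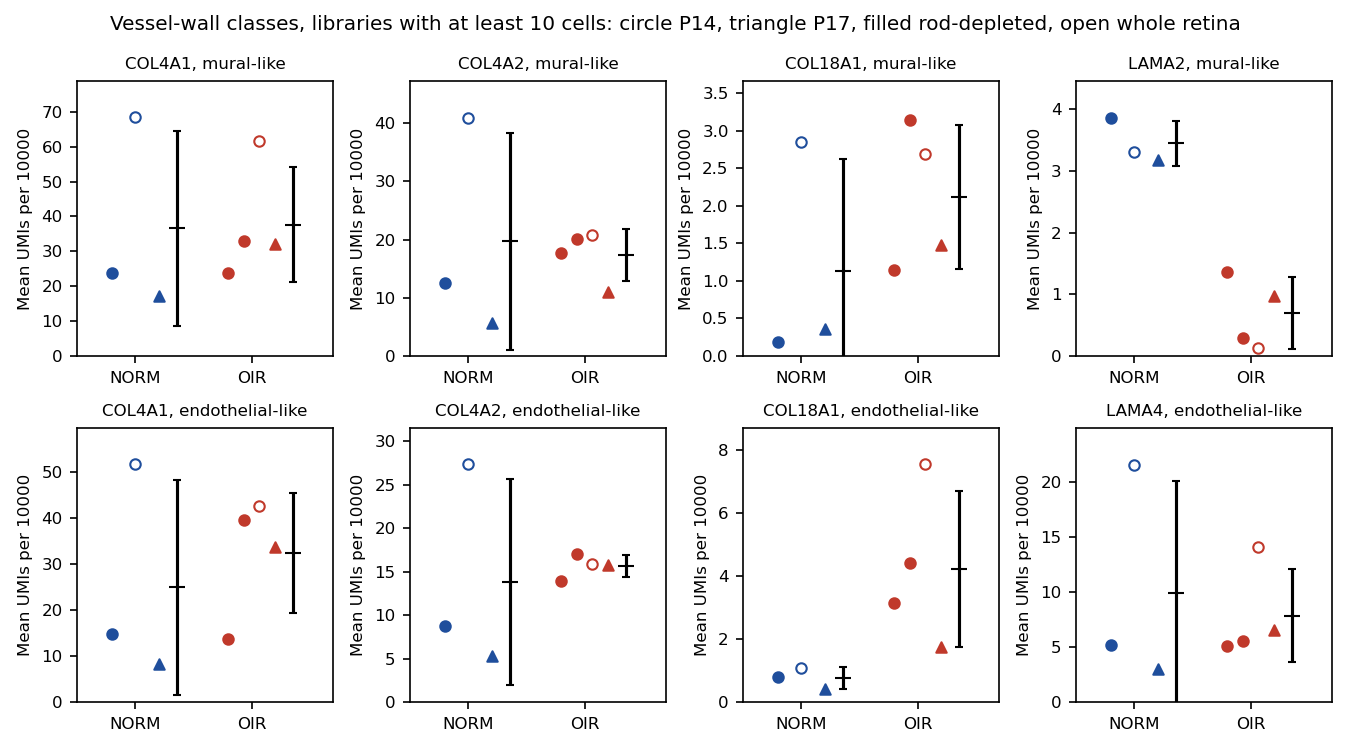
Levels (mean UMIs per 10000, vertical axis) of 4 members in mural-like (top) and endothelial-like cells (bottom), each point a library with at least 10 cells, with circles for P14, triangles for P17, filled symbols for rod-depleted and open symbols for whole retina; bars give the mean and SD of the 3 NORM and 4 OIR libraries. LAMA2 in mural-like cells (3.18 to 3.86 against 0.127 to 1.37) and COL18A1 in endothelial-like cells (0.413 to 1.09 against 1.75 to 7.54) do not overlap between NORM and OIR, and COL4A1 and COL4A2 do.

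The mural-like cells were split into sub-clusters, which were made without the members. The median depth of sub-clusters 1 to 5 was 2184.5, 2082, 997.5, 4775 and 1307.5 UMIs per cell, lowest in sub-cluster 3 and highest in sub-cluster 4. The part of depth in the shares and levels below was not tested. The shares of sub-clusters 3 and 4 did not overlap between NORM and OIR rod-depleted libraries, and those of the others did. Sub-cluster 3, 76 cells led by VTN, P2RY14 and KCNJ8, the genes of pericytes, was 40.5% and 77.6% of the mural-like cells in the NORM rod-depleted libraries and 0%, 0% and 10.4% in the OIR ones. Sub-cluster 1, led by CXCL1 and RGS16, was 27.0% and 2.04% in NORM and 60.7%, 23.9% and 50.4% in OIR. In the pair of the same run it was 27.0% in NORM and 23.9% in OIR. The dividing sub-cluster 4 (TOP2A, MKI67) was 0% in both NORM and 19.7%, 30.4% and 6.96% in OIR. Sub-cluster 2 (ACTA2, MYH11, contractile genes of smooth muscle) and sub-cluster 5 were found in both conditions. Sub-cluster 5 was led by DCN and LUM, matrix genes of fibroblasts, but its top 10 genes also held others, PCP2 and GNG13 among them. What cells it holds was not tested. The 24 cells of sub-cluster 5 had COL3A1 at 19.5 and COL1A2 at 14.4 and COL4A1 at 9.97, while COL4A1 stood at 23.3 to 41.1 in the other sub-clusters.

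Pooled over libraries, the LAMA2 level was lower in OIR in each sub-cluster that held cells of both conditions, but on few UMIs outside sub-cluster 1. It had 4.71 against 1.03 in sub-cluster 1 (NORM against OIR, 14 and 41 UMIs) and 1.80 against 0.766 in sub-cluster 2 (5 and 15 UMIs). It had 3.87 against 0.805 in sub-cluster 3 (22 and 2 UMIs) and 1.63 against 0.877 in sub-cluster 5 (3 and 3 UMIs). COL18A1 did not keep its direction, with 2.45 against 1.84 in sub-cluster 1 (8 and 55 UMIs), 0.549 against 2.46 in sub-cluster 2 (2 and 39 UMIs) and 1 UMI in 62 NORM cells against none in 14 OIR cells in sub-cluster 3. COL28A1 had 7 of its 11 NORM UMIs in sub-cluster 3 and 4 in sub-cluster 2, and none in the 23 NORM cells of sub-cluster 1. COL4A1 was at 56.0 against 38.4 in sub-cluster 1, 20.6 against 32.9 in sub-cluster 2 and 21.0 against 33.8 in sub-cluster 3. Of the 23 NORM cells of sub-cluster 1, 12 were from P14 whole retina, 10 from P14 rod-depleted and 1 from P17 rod-depleted. The rod-depleted OIR libraries gave it 37 and 11 cells (P14 1 and 2) and 58 cells (P17). The pooled values thus mix libraries and fractions with oxygen, and the part of each was not tested. The differences within sub-clusters were not tested either, since few libraries held enough cells.

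**Figure D4:**
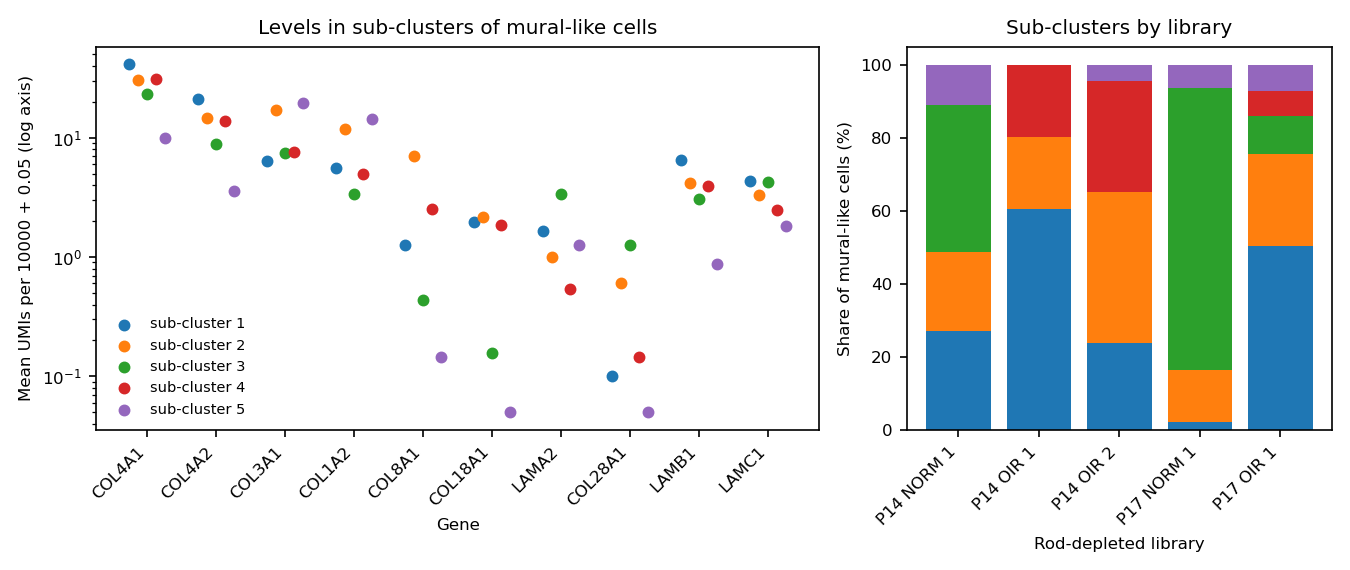
Left, mean UMIs per 10000 (log axis, 0.05 added) of 10 members in the 5 sub-clusters of the 376 mural-like cells. Right, share of mural-like cells in each sub-cluster for the 5 rod-depleted libraries (percent), in which sub-cluster 3 falls between 40.5% and 77.6% in NORM and between 0% and 10.4% in OIR.

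Endothelial-like cells were tested at 10 cells a library, because only 4 libraries had 20. Of 12 members tested, COL18A1 rose (background 0.253%). It stood at 0.810, 1.09 and 0.413 in the NORM libraries (P14 rod-depleted, P14 whole retina and P17 rod-depleted) and at 3.15, 4.42, 7.54 and 1.75 in the OIR libraries (P14 rod-depleted 1 and 2, P14 whole retina 3 and P17 rod-depleted). All 4 OIR libraries lay above all 3 NORM libraries, with 19, 3 and 1 UMIs in NORM and 22, 37, 23 and 29 in OIR, and the difference was 2.06 ± 0.48 (adjusted p = 0.0453). The call was lost in each of the 7 fits that left out a library, with differences of 1.84 to 2.23 and adjusted p of 0.119 to 0.545. In the pair of the same run COL18A1 went from 0.810 to 4.42. With the 4 libraries of at least 20 cells (1 residual degree of freedom), COL18A1 did not pass (1.7 ± 0.55, adjusted p = 0.182). COL15A1 did (2.66 ± 0.70, adjusted p = 0.0342, 1 of 10 members, background 0.546%). It passed the filter on low values through OIR, with a mean below 0.2 in NORM, so its call is a description. The summed level of the 11 mural markers in these profiles ran from 0 to 22.8 in NORM and from 0.33 to 19.3 in OIR.

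The other endothelial chains did not pass. COL15A1, the other multiplexin, had 0.0249, 0.879 and 0 in NORM and 0.811, 0.527, 1.64 and 1.59 in OIR (1.95 ± 0.63, adjusted p = 0.435). COL4A1 had 14.9, 51.6 and 8.39 in NORM and 13.7, 39.6, 42.5 and 33.6 in OIR, and the sets overlapped (0.76 ± 0.32, adjusted p = 0.618). In both classes the P14 NORM whole-retina library had the highest COL4A1 and COL4A2 of all, from 17 mural-like and 10 endothelial-like cells. COL4A2 (0.54, adjusted p = 0.762), LAMC1 (0.65, 0.817), LAMB1 (0.44, 0.855) and LAMB2 (-1.01, 0.791) were further from the threshold.

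A stretch before the COL18A1 start is shown because COL18A1 is the member that rose in endothelial-like cells. It is the 232 bases before the outermost COL18A1 start of GENCODE M21, with the sequence from RefSeq (GRCm38.p6, minus strand, 5′ to 3′), and capitals mark the GC box, searched as GGGCGG on both strands.
COL18A1 upstream, chr10:77166549-77166780: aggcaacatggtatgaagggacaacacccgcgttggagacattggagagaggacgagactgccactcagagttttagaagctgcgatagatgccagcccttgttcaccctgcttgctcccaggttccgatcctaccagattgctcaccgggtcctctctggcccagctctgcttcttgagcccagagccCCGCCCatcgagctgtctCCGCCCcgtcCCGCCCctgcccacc
The GC box occurred 3 times in this window, and the core of the hypoxia response element, ACGTG, did not occur on either strand. Over 32851 mouse promoter windows of 250 bases before to 50 after a start, 35.7% held a GC box and 19.6% an ACGTG, and of 44 windows of 40 member genes 26 and 5 did. COL18A1 has another RefSeq start on the same strand, and 3′ counting cannot tell which start a UMI came from.

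In glia no member passed for oxygen. Of 11 members tested in Müller-like cells, COL2A1 came nearest, with 2.87, 5.22 and 6.23 per 10000 (lowest, median and highest of 4 libraries) in NORM and 5.66, 7.28 and 12.3 in OIR (8 libraries). Of the OIR libraries 6 exceeded every NORM library (0.56 ± 0.21, adjusted p = 0.327). In the pairs of the same run it went from 4.99 to 7.52 (rod-depleted) and from 6.23 to 5.66 (whole retina). COL9A1 had 12.8 to 28.8 in NORM and 12.3 to 31.0 in OIR (-0.17 ± 0.22, adjusted p = 0.752), and LAMA5 differed by 0.78 (adjusted p = 0.442). Of 14 members in astrocyte-like cells at 10 cells a library, COL1A2 had 0 and 0.236 in NORM and 0.174, 3.76, 1.37, 1.22 and 1.43 in OIR (2.28 ± 0.69, adjusted p = 0.190). COL9A1 was lower in 5 of 5 OIR libraries (-1.04 ± 0.47, adjusted p = 0.446), and COL4A1 differed by -1.40 (adjusted p = 0.434). In OPTC-led cells none of 20 passed. COL9A1 had 88.1 and 118 in NORM and 88.1, 41.5 and 68.3 in OIR (-0.65 ± 0.22, adjusted p = 0.376), and COL9A3 had 13.6 and 18.6 against 9.40, 5.35 and 9.42 (-0.94, adjusted p = 0.438). COL18A1 there was 17.8 and 17.0 in NORM and 12.2, 17.3 and 15.8 in OIR.

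COL23A1 rose in cone bipolar-like cells, where 8 members were tested (background 0.152%). It stood at 1.48, 1.40, 0.708 and 0.664 in the NORM libraries, with a mean of 1.06 ± 0.437 (SD, n = 4). The OIR libraries had 2.08, 2.74 and 6.37 (lowest, median and highest of 8). All 8 lay above all 4 NORM libraries, and the difference was 1.35 ± 0.26 (log2, SE; adjusted p = 0.0293). NORM held 149 UMIs and OIR 1479, of which 3 came from P17 NORM whole retina. In the pairs of the same run the level went from 1.48 to 6.37 (rod-depleted) and from 1.40 to 2.85 (whole retina).

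The higher level was also seen in 2 of the 6 clusters of cone bipolar-like cells, and NORM and OIR overlapped in the other 4. In the KCNG4-led cluster, NORM libraries had 0.5683 to 3.37 (mean 2.21 ± 1.18, n = 4) and OIR libraries 4.55 to 6.84 (5.96 ± 0.862, n = 8). In the CACNA1H-led cluster, NORM had 1.05 and 1.74 and OIR 3.16 to 14.1 (5 libraries). Its values of 14.1 and 7.37 came from only 10 and 12 cells of P14 OIR whole retina 2 and 3. They had no NORM whole-retina value beside them. The rod-depleted OIR libraries had 3.16, 9.20 and 4.98. In cluster 14 NORM had 0 to 1.51 and OIR 0.371 to 1.86, and in clusters 11, 13 and 17 the medians were 0.438 or less in both. These clusters made up 11.7% to 43.1% and 0% to 48.2% of the cone bipolar-like cells of a library, with the 48.2% in P14 OIR rod-depleted 2, the library with the level of 6.37. Without that library the difference was 1.19 (adjusted p = 0.0501). The call was lost in 8 of the 12 fits that left out a library (adjusted p up to 0.137), namely those without any of the 4 NORM libraries or without OIR P14 rod-depleted 2, P14 whole retina 1, P17 rod-depleted or P17 whole retina 2, and the difference stayed between 1.19 and 1.55. The summed level of the 8 Müller markers in these profiles was 3.49 to 14.5, highest in P17 NORM rod-depleted. In Müller-like cells COL23A1 differed by -0.22 (adjusted p = 0.742).

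Other neuronal members did not pass. COL27A1 in horizontal-like cells had 4.32 and 4.21 in NORM and 4.61, 7.63, 9.94 and 10.3 in OIR, all 4 above NORM (0.46, adjusted p = 0.684). The 3 highest were the P17 OIR libraries, and the same-run pair at P14 had 4.32 and 4.61. COL4A1 in rod bipolar-like cells had 0.538 to 1.88 in NORM and 0.675 to 1.49 in OIR (0.21, adjusted p = 0.677). COL25A1 (0.86, adjusted p = 0.464) and COL7A1 (1.04, 0.394) were the amacrine members of smallest p.

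**Figure D5:**
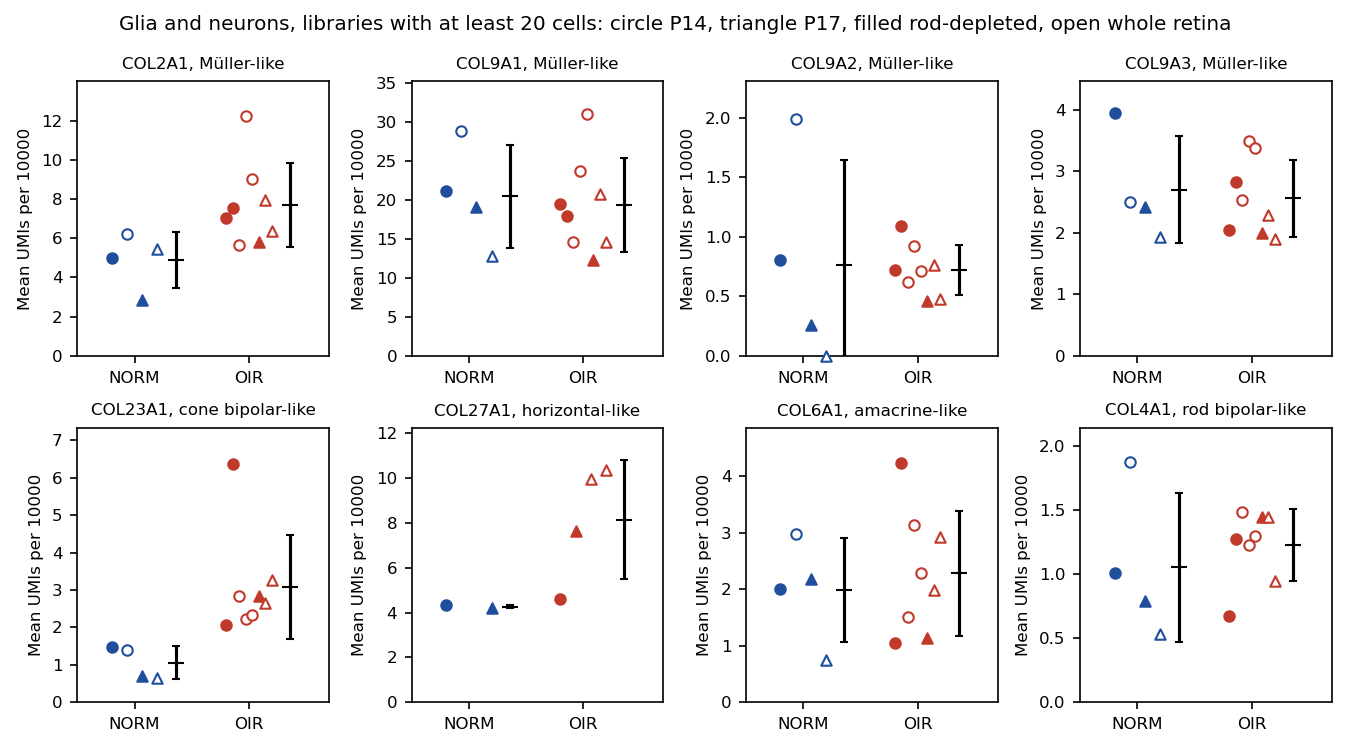
Levels (mean UMIs per 10000, vertical axis) of 8 member and class pairs in glia and neurons, each point a library with at least 20 cells, symbols as in the plot of vessel-wall levels; bars give the mean and SD of the NORM and OIR libraries. COL23A1 in cone bipolar-like cells separates NORM (0.664 to 1.48) from OIR (2.08 to 6.37), and in the Müller-like panels the 2 sets overlap.

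No member passed for day. Of the 115 member and class pairs, 0 had an adjusted p below 0.05 for P17 minus P14 with limma (background 0.152%), and 21 (18.3%) had an unadjusted p below 0.05, against 9.73% of all pairs. Without P17 OIR rod-depleted, which left 1 P17 library of mural-like cells, 7 members were lower at P17 there, COL1A1 and COL27A1 among them. In Müller-like cells COL9A2 had the smallest p, followed by COL11A1. COL9A2 had a mean of 0.980 ± 0.471 at P14 (n = 7) and 0.392 ± 0.285 at P17 (n = 5), a difference of -1.06 ± 0.35 (adjusted p = 0.206). COL9A1 had 22.4 ± 5.88 and 15.9 ± 3.79 (-0.50 ± 0.20, adjusted p = 0.314), COL9A3 2.97 ± 0.670 and 2.11 ± 0.233 (-0.45 ± 0.20, 0.364) and COL11A1 differed by -0.81 (0.261). The ranges of the ages overlapped for each of the 4. In mural-like cells COL4A2 had 12.5, 17.7 and 20.1 at P14 and 5.63 and 11.02 at P17, both P17 values below all P14 values (-0.92 ± 0.27, adjusted p = 0.352). COL15A1 (-1.79, adjusted p = 0.587), COL4A5 (1.56, 0.603), COL27A1 (-1.69, 0.603) and COL8A1 (-1.0, 0.660) followed. LAMA5 in OPTC-led cells had 0.488 at P14 and 2.24 at P17 (1.80, adjusted p = 0.265). In endothelial-like cells the smallest adjusted p was 0.999, and in astrocyte-like cells LAMB2 came nearest (-1.52 ± 0.56, adjusted p = 0.561).

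The oxygen difference was not shown to depend on age for any member. With limma 0 of 59 pairs in 7 classes passed for the interaction (background 0.539%), and 11 (18.6%) had an unadjusted p below 0.05, against 12.3% of all pairs. Without P17 NORM rod-depleted this count of 0 was 8, and without P14 NORM rod-depleted it was 1. The 5 mural-like libraries leave 1 residual degree of freedom, and with limma 0 of 28 members passed (background 0%), with 7 (25%) at an unadjusted p below 0.05 and 9.98% of all genes. With 1 residual degree of freedom too, 0 of 20 members passed in OPTC-led (background 0.0424%), 0 of 5 in horizontal-like and 0 of 3 in microglia-like cells (background 0% in both), with limma, and 0, 2 and 0 of them had an unadjusted p below 0.05. With the 7 libraries of at least 10 cells, 0 of 32 passed (background 0%), and 6 (18.8%) had an unadjusted p below 0.05, against 3.60% of all genes. COL9A2 in Müller-like cells had an interaction of 1.90 (adjusted p = 0.352).

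Other genes of the matrix moved in mural-like cells, from lists that hold no member. Of 9 other basement membrane genes, 17 for collagen folding and cross-linking, 13 matrix receptors and 8 proteases and inhibitors tested, 1 in each rose with oxygen and none fell (background 1.06%). FN1, fibronectin, had 0.994 and 0.221 in NORM and 2.66 to 4.62 in OIR (2.16, adjusted p = 0.0165), and its same-run pair had 0.994 and 4.62. LOXL2, a cross-linking enzyme for collagen, had 0.675 and 2.31 in NORM and 5.14 to 5.81 in OIR (2.06, adjusted p = 0.00840), with 0.675 and 5.14 in the same-run pair. Without P14 NORM its adjusted p was 0.301. ITGB1, the beta chain shared by the collagen and laminin receptors, had 7.24 and 9.41 in NORM and 18.2 to 19.0 in OIR (1.12, adjusted p = 0.0364), with 9.41 and 18.55 in the same-run pair. Its call was lost without P14 NORM (adjusted p = 0.0502), P14 OIR 1 (0.0672) or P17 OIR (0.0545). ADAMTS2, which trims fibrillar procollagen, was at 0 in both NORM libraries and at 0.855 to 1.24 in OIR. It passed the filter on low values through OIR alone, so its call is a description. LOXL2 was higher in OIR Müller-like cells too, at 0 to 0.301 in NORM and 0.281 to 0.835 in OIR (1.47, adjusted p = 0.0411, 7 of 8 libraries above NORM). Of its same-run pairs there the rod-depleted one went from 0.0403 to 0.548 and the whole-retina one from 0.301 to 0.281. LOXL2 was also higher in cone bipolar-like cells (1.38, adjusted p = 0.0171, 8 of 8), with pairs of 0.0613 and 0.402 (rod-depleted) and 0.0422 and 0.340 (whole retina). FN1 in Müller-like cells had 0 to 0.331 in NORM and 0.628 to 2.396 in OIR (1.83, adjusted p = 0.0114, 8 of 8). Its pairs had 0.206 and 0.628 (rod-depleted) and 0.331 and 0.722 (whole retina). The NORM mean was 0.1655 for FN1 in Müller-like cells. For LOXL2 it was 0.0977 in Müller-like and 0.0308 in cone bipolar-like cells. In these classes both genes passed the filter on low values through OIR alone, so these calls are descriptions as well. In microglia-like cells MMP12 was at 0 in both NORM libraries and at 0.422 to 14.7 in OIR (3.87, adjusted p = 1.97e-04 with limma). PLOD2 in rod bipolar-like cells had means of 0.111 in NORM and 0.417 in OIR (0.94, adjusted p = 0.0363, 8 of 8). MMP12 and PLOD2 passed the filter through OIR alone in these classes, so their calls are descriptions too. None of the list genes passed in endothelial-like or astrocyte-like cells for oxygen, or in mural-like or Müller-like cells for day.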

How the data were processed

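Single cells of whole or rod-depleted mouse retina were profiled by Drop-seq with about 50 000 reads per cell on a NextSeq500, per the labels' protocols. Reads were processed with bcl2fastq and STAR 2.4.0 against mm10 (GRCm38), per the submitters' processing notes. For the annotation, for reads with several matches and for doublets, the handling is not given in the sources used here. No doublet caller was run. The deposited values are natural log values, the natural log of 1 plus the UMIs per 10000 of the cell, as the values themselves show: undone, 100% of them lie within 0.05 of whole UMIs, which were used for depth, shares and intervals only. Columns were matched to libraries by name. The P14 NORM whole-retina columns carry the replicate number 8 instead of 1, so that match is less sure, and 5799 columns in 7 sets were not used. Of 25458 barcodes, 14 occurred in more than 1 library.

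Cells with at least 200 genes were clustered in Python 3.11.15 (numpy 2.4.6, scipy 1.17.1, igraph 0.11.9, leidenalg 0.10.2: 2000 variable genes without the members, 30 components, 15 neighbours, resolution 1, seed 1). A cluster was named from 20 marker sets where at least 3 markers were each found in 10% of its cells and more of its own than of another set were among its top 10 genes. Class means per library were tested as log2(mean per 10000 + 0.2) with limma 3.58.1 (trend) in R 4.3.3, for genes with a mean of at least 0.2 and above 0 in at least 3 libraries. Adjusted p-values are Benjamini-Hochberg over all genes of a fit, two-sided, with a threshold of 0.05. Because the values are not raw counts, no count model was used. Differences are on the log2(value + 0.2) scale, which understates those of low genes. The labels do not tie libraries to separate animals. P-values then reflect only how far libraries differ, which may be technical. Tested on simulated data with differences of 1 and 2 log2 units, the fit recovered 53% and 100% in Müller-like profiles (7402 genes) and 0% and 21% in mural-like ones (6882 genes).

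The members, lists, markers and tests were chosen with earlier results of these data known. Named are members past the threshold, members that reach 1 per 10000 in a class, and the 5 genes most correlated with COL4A1. The members of smallest p for oxygen and day in mural-like, endothelial-like, Müller-like and astrocyte-like cells are named too. From lists without members, some of the genes past the threshold for oxygen are named. Alternatives changed the pseudocount (0.05, 1), the filter, the cell minimum (10 cells, 500 genes), UMI sums, median centring, the clustering and the libraries. Leaving out a library at 10 cells or from the UMI shares, fits with 1 residual degree of freedom, the sub-clusters of mural-like cells and the levels within single clusters were added after seeing the data. Exact 95% intervals on shares cover counting error only. Of the 55 members 40 have a promoter window in the RefSeq table. Values of some members are not reported here.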

Additional observations from a re-analysis of the deposited data

Results flagged for a closer look

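Among 23 sets of 4 to 10 NORM or OIR libraries behind the plotted levels, 2 held a library far from the others by Dixon's test at 95%. Chance singles out about 1 in 20 such sets. COL23A1 in cone bipolar-like cells stood at 6.37 per 10000 in P14 OIR rod-depleted 2, and the gap to the nearest of the 8 OIR libraries was 0.72 of their range. In that library 48.2% of the cone bipolar-like cells belonged to the CACNA1H-led cluster, where COL23A1 is high, and the part of this share in the level was not tested. LAMA4 in endothelial-like cells stood at 14.15 per 10000 in P14 OIR whole retina 3, from 11 cells, against 5.13 to 6.62 in the other OIR libraries. The P14 NORM whole-retina library, with 10 endothelial-like cells, had 21.6, and these 2 were the only whole-retina libraries in the comparison.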

How the results depend on the processing

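The count of 2 members past the threshold for oxygen was 0 with a pseudocount of 0.05, 1 with a pseudocount of 1, 4 with libraries of at least 10 cells, 1 at resolution 2, 1 with clusters made with the members and 0 with a replicate block. It ranged from 1 to 8 when 1 library was left out, with mural-like cells then fitted with 1 residual degree of freedom. It was 3 without a filter on low values, with UMI sums and with median centring. COL28A1 in mural-like cells lost its call with the pseudocount of 0.05 (adjusted p = 0.0792), 10 cells (0.209), cells of at least 500 genes (0.0593) and the block (0.0584). COL23A1 in cone bipolar-like cells lost it in 14 alternatives, with adjusted p of 0.0501 to 0.418 and differences of 0.95 to 1.55. COL18A1 (adjusted p = 0.0106) and LAMA2 (0.00671) in mural-like cells passed without a filter, COL18A1 with median centring (0.0396) and COL5A3 with UMI sums (0.0436). The cause of these changes was not tested. The count for day was 0 in the alternatives run with limma, save that it ranged from 0 to 7 when 1 library was left out (7 without P17 OIR rod-depleted).

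The count for the interaction of oxygen and day, 0, was 2 without a filter, 1 with clusters made with the members and 0 to 8 when 1 library was left out. Without a filter more members were tested, and the counts were 22 for mural-like against endothelial-like cells, 34 for mural-like and 20 for endothelial-like against Müller-like cells, and 20 for Müller-like against rod bipolar-like cells. With 1 library left out these 4 ranged over 2 to 5, 13 to 16, 12 to 13 and 13 to 13, and Müller-like against astrocyte-like cells over 4 to 8. The share of COL4A1 and COL4A2 UMIs in vessel-wall classes was 73.4% in cells of at least 500 genes and 65.1% to 74.9% with 1 library left out. COL9A2 between Müller-like and astrocyte-like cells was the class difference that lost its call most often, in 12 alternatives. No named value changed its direction past the threshold in any alternative.

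For the replicate block, the deviations of same-numbered libraries correlated by -0.0986 to 0.176 (Müller-like profiles, 7406 genes), not above 0.1 in each pair, so the numbers were not taken to pair the libraries. With the block, no member passed for oxygen (0), day or their interaction, and COL23A1 had 1.21 (adjusted p = 0.340).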

Other observations

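COL4A3 and COL4A4, the type IV chains that pair with COL4A5 in some basement membranes, were low in every class of cells. In the CRYAA-led cells, left out of every test and present in P14 OIR whole retina 2 and 3 alone among libraries with at least 20 of them, COL4A3 had 0.142 and 0.245 per 10000 and COL4A4 0.158 and 0.192. These values rest on 11 and 6 UMIs, and mural-like cells had means of 0.160 for COL4A3 and 0.0930 for COL4A4, so no order of the classes was read from them.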
